A study of Mus musculus with 24 samples.

Results

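The regions described here are the intergenic stretches of under 10 kb in kidney, taken from the authors' tables of downsampled reads by their length alone. Of 15797 intergenic regions in these tables, 4171 (26.4%) were shorter than 10 kb, and they held 1.34% of the intergenic length. The reads come from XR-seq, which sequences the short DNA fragments that nucleotide excision repair cuts out around a lesion, so that a read marks a place where an adduct was being removed. The mice were wild-type C57BL/6 females aged 6 months under a 12:12 light-dark cycle. Each had received an intraperitoneal dose of 10 mg/kg cisplatin, a drug that crosslinks neighbouring guanines, and its kidneys were taken after 2 h. There were 12 libraries, with 2 replicates at each of 6 zeitgeber times (ZT0, ZT4, ZT8, ZT12, ZT16 and ZT20, in hours from lights on), and every mouse carried cisplatin, so no untreated background was measured. The labels do not say that the 2 replicates came from separate animals, and the p-values then measure only the spread between these libraries.

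Nucleotide excision repair works in 2 modes. Transcription-coupled repair starts where RNA polymerase stalls at a lesion, and so acts on the transcribed strand (TS) of active genes. Global repair finds lesions anywhere in the genome, including the non-transcribed strand (NTS) and the DNA between genes. RNA polymerase continues past the annotated end of a gene before it is released, and many promoters also fire in the direction away from their gene, so that DNA next to genes can be transcribed without being annotated.

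Each of the 15797 intergenic regions began exactly 2000 bases past the neighbouring gene and ended 2000 bases before the next one, so that a region under 10 kb stands for a gap of under 14 kb between genes. The 4171 short regions were 1002 to 9999 bases long, with a median of 4801. By the strands of the neighbours, 2108 lay between genes of the same strand (tandem, 1050 between plus-strand genes and 1058 between minus-strand genes). A further 874 lay between the 3′ ends of both neighbours (convergent) and 625 between their 5′ ends (divergent). The other 564 had a cluster of overlapping opposite-strand genes on at least 1 side. A single-strand flanking gene with TS and NTS reads was at hand for 4143 of the 4171. Density is given throughout as RPKM, the reads per kb of strand scaled to the fixed total of the library, with the length of a region counted on both strands. The 3 regions just under the limit were 9997, 9998 and 9999 bases long (Nkx6-3 to Gpat4, Imp4 to Ptpn18 and Olfr480 to Olfr481), with mean densities of 0.194, 0.580 and 0.0135. The 3 just over it were 10004, 10004 and 10006 bases long (Limk1 to Eln, Tas2r102 to Tas2r136 and Rln1 to Plgrkt), with densities of 0.0409, 0.0121 and 0.0937.

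The sequences below show where cisplatin could form its main adducts, at neighbouring guanines on either strand, in and next to regions whose values are described further on. They were read from RefSeq's promoter windows (GRCm38.p6, 250 bases before to 50 bases after an annotated start), and capitals mark runs of 2 or more G or of 2 or more C. The Gm46434 window lies inside the short region between Rps23 and Atg10. The first Per1 window starts 1744 bases past the end of the region between Vamp2 and Per1, the second 2947 bases past it, and the Npas2 window 1751 bases past the region between Mir6349 and Npas2.
Gm46434, chr13:90931632-90931931, minus strand: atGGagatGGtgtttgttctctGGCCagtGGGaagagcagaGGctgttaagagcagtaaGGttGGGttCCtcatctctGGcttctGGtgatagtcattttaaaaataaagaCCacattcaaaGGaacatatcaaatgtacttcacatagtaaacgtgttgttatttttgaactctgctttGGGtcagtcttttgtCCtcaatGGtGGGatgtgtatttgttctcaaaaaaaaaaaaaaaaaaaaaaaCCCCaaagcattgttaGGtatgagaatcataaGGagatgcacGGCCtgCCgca
Per1, first window, chr11:69098699-69098998, plus strand: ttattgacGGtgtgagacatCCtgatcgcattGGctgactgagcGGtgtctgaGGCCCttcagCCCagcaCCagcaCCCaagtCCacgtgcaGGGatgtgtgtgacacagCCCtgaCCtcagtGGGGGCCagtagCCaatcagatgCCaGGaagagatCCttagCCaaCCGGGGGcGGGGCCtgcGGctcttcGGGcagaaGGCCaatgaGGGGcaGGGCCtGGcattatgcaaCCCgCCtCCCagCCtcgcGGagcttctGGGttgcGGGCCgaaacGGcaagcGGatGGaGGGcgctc
Per1, second window, chr11:69099902-69100201, plus strand: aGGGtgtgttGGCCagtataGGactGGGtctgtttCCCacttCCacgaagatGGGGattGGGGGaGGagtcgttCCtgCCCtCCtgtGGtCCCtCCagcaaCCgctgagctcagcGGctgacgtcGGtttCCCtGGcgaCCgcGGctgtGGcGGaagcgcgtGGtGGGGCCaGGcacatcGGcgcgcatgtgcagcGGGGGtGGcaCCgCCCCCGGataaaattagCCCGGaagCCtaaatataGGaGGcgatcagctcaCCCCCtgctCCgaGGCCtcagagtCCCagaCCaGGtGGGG
Npas2, chr1:39194022-39194321, plus strand: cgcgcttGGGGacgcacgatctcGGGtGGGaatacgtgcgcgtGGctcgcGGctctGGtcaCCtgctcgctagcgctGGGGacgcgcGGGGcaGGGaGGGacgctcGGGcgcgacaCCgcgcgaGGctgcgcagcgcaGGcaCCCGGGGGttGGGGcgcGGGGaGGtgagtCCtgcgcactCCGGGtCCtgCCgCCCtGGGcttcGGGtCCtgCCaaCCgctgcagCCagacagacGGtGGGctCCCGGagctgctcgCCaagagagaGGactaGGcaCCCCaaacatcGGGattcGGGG

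Of the 300 bases, 52 were in such runs in the Gm46434 window, 110 and 122 in the Per1 windows and 114 in the Npas2 window. The median over all 32851 RefSeq windows was 82, with 90% of windows between 38 and 136, and the 116 windows that lay whole inside a short region had a median of 75.5. The E-box CACGTG, the palindrome that clock activators bind, occurred 1 time in the first Per1 window and in none of the other 3. It occurred in 7.15% of all windows and in 3.45% of the 116. A match of letters does not show that a factor binds there. The density of adducts in the short regions was not analysed here.

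The authors had drawn each library down to 8700000 reads (replicate 1) or 20000000 reads (replicate 2). The short regions held 92079 to 98942 reads in the replicate 1 libraries and 217557 to 222235 in the replicate 2 libraries, which is 1.06% to 1.14% of the fixed total. A short region had a median of 18.5 reads per library (90% of regions between 1.42 and 139), 1996 had a mean of at least 20, and 3 had none in any library. Marker genes did not set the tissue apart in TS density, since the medians of 10 kidney tubule genes were 0.126 to 1.90, and those of 6 hepatocyte genes 0.119 to 0.968.

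The short regions held more repair reads per kb than the rest of the intergenic DNA and than the NTS of the genes beside them, and fewer than the TS of those genes. Their summed density was 0.251 at the lowest, 0.260 at the median and 0.270 at the highest over the 12 libraries. The regions of 10 kb or more had 0.0415, 0.0442 and 0.0487, the flanking NTS 0.102, 0.122 and 0.147, and the flanking TS 0.945, 0.982 and 1.01. In none of these 3 comparisons did the libraries overlap. The short regions averaged 0.259 ± 0.00540, against 0.0446 ± 0.00212 in the longer regions (SD, n = 12 each), a ratio of 5.82 (log2 2.54 ± 0.06, SD). Against 0.124 ± 0.0126 in the flanking NTS the ratio was 2.10 (log2 1.07 ± 0.13), and against 0.981 ± 0.0189 in the flanking TS it was 0.264 (log2 -1.92 ± 0.05). Each direction held in 12 of 12 libraries, with p = 0.000488 in an exact two-sided sign-flip permutation test over libraries, the smallest that 12 libraries allow, and the same after adjustment over 6 such comparisons. With the median density over regions in place of the sum, the log2 ratio to the longer regions was 1.55 and that to the flanking NTS 0.57. Without the 1144 short regions that overlap a gene of the RefSeq table, and the longer regions that do, the log2 ratio to the longer regions was 1.80.

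**Figure D1:**
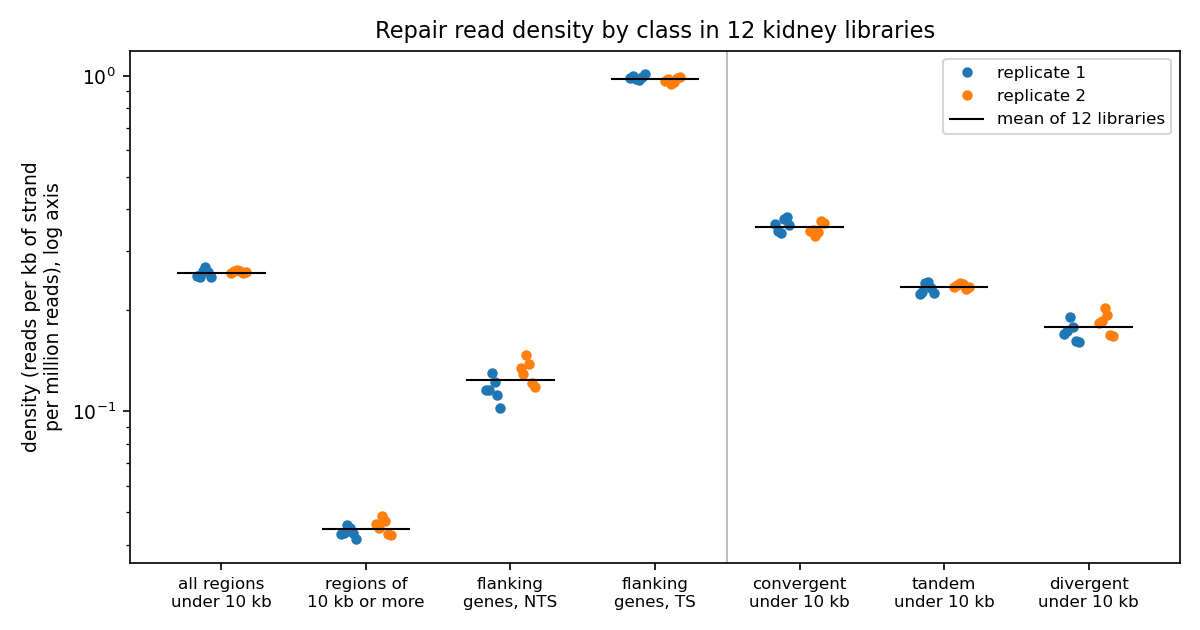
Density (RPKM, log axis) of each class in 12 kidney libraries, one point per library, coloured by replicate, with a line at the mean. Regions under 10 kb sit between the non-transcribed and the transcribed strand of their flanking genes, and convergent regions lie above tandem and divergent ones.

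Density was uneven among the short regions. The median region had 0.145, the regions at the 5th and 95th percentile 0.0110 and 0.999, and the densest 4.62. The 42 regions with the most reads (1%) held 8.63% of all reads of the short regions, and the 417 with the most reads (10%) held 42.2%. Region densities averaged over the replicate 1 libraries and over the replicate 2 libraries had a Spearman correlation of 0.986 across regions, as a description.

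Each region was then set against its own flanking genes with edgeR's quasi-likelihood test, fitted over all intergenic regions, and called where the Benjamini-Hochberg adjusted p was below 0.05. Against the flanking NTS, 2043 of 4106 tested short regions were higher, where 39.1% of all tested intergenic regions were, and 974 were lower, where 35.2% of all were. The median log2 ratio was 0.49 in the short regions and 0.11 over all. Against the flanking TS, 305 of 4109 were higher, where 8.81% of all were, and 3081 were lower, where 74.1% of all were. The median log2 ratio was -1.62 in the short regions and -1.92 over all. So the share of short regions above the NTS was larger than the background of 39.1%, and the shares relative to the TS lay near theirs.

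Among regions with a mean of at least 20 reads, the 5 densest had means of 3.11 to 4.62. The TS summed over the flanking genes of all short regions had 0.981, but the TS beside these 5 differed from that. The region between Rhof, a small GTPase of filopodia, and Setd1b, a histone H3K4 methyltransferase (chr5:123134630-123140192), had densities of 3.79 to 5.64 with a median of 4.33, and its mean was 4.62 ± 0.655 (SD, n = 12), against 0.460 ± 0.0362 in the flanking NTS and 4.98 ± 0.659 in the flanking TS. It was 10.0 times the flanking NTS (log2 3.32 ± 0.06, SE, adjusted p = 9.81e-31, edgeR), and its log2 ratio to the TS was -0.11 (adjusted p = 0.0606). RefSeq extends Rhof into this region. The region between Neat1, the long noncoding RNA of paraspeckles, and Frmd8 (chr19:5847481-5848973) had 4.04 ± 0.425, against 0.810 ± 0.195 in the flanking NTS and 3.39 ± 0.131 in the flanking TS, and no RefSeq gene lies in it. It passed the test as higher than both strands (log2 2.31, adjusted p = 1.04e-23, and log2 0.26, adjusted p = 9.52e-05, edgeR). The other 3 lay between Kdm6b, an H3K27 demethylase, and Dnah2, an axonemal dynein (3.80 ± 0.614), between Prr14, which tethers heterochromatin to the lamina, and Fbrs (3.35 ± 0.377), and between Eif4b, a translation initiation factor, and Tns2, a tensin (3.11 ± 0.452). In these 3, as in the Rhof region, RefSeq extends a flanking gene into the region. The flanking TS of these 3 had 0.903 ± 0.118, 6.18 ± 0.709 and 3.85 ± 0.434 (SD, n = 12). The Kdm6b region was higher than its flanking TS (log2 2.06, adjusted p = 1.22e-25, edgeR). The Prr14 and Eif4b regions were lower than theirs (log2 -0.88 and -0.30, adjusted p = 3.55e-17 and 1.49e-05, edgeR).

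Among the regions of at least 20 reads with the highest ratio to the flanking NTS, some lay beyond the 3′ end of a gene with a dense TS, next to a neighbour with a sparse one. The flanking strands are summed over the length of both neighbours, so that the longer gene weighs more. Between Snapc1, a subunit of the complex that starts small nuclear RNA genes, and Syt16, a synaptotagmin (chr12:73986821-73995760), the first-listed line had 1.21 ± 0.147 and the second-listed 0.0420 ± 0.0212, with a TS mean of 2.19 in Snapc1 and 0.0251 in Syt16. RefSeq extends Snapc1 into this region, so part of it is not beyond the gene by that annotation. Between D5Ertd615e and Qdpr, which recycles tetrahydrobiopterin (chr5:45426401-45432031), the second-listed line had 1.09 ± 0.279 and the first-listed 0.0506 ± 0.0227, with a TS mean of 1.76 in Qdpr and 0.0550 in D5Ertd615e. No RefSeq gene lies in the region beside Qdpr. The log2 ratios of the Snapc1 and Qdpr regions to the flanking NTS were 4.62 ± 0.08 and 4.47 ± 0.11 (SE, adjusted p = 2.78e-30 and 7.28e-27, edgeR).

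Other regions with a high ratio differed in layout. The region between Cep170, a centrosomal protein, and the Sdccag8 cluster (log2 4.90 ± 0.11) is one into which RefSeq extends Cep170. The divergent region between Dync2h1, the ciliary dynein-2 heavy chain, and Dcun1d5, a neddylation factor (log2 4.51 ± 0.09), is overlapped by the RefSeq entry of Dcun1d5. The region between Sprr2j-ps and Sprr2k, of a family of epidermal cornified envelope genes (chr3:92421397-92430581), had 0.294 to 0.476 with a median of 0.373. Its flanking NTS was at 0 in the median library and at 0.0188 in the highest, so no fold is given. The RefSeq gene Gm9774 lies inside it, and the second-listed line had 0.699 ± 0.142 against 0.0504 ± 0.0251 in the first-listed one.

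Among regions with a mean of at least 20 reads, those furthest below their flanking NTS had a dense TS summed over their flanks, at 2.56 to 4.2 in all 4. Between Josd2, a deubiquitinase, and 5430431A17Rik (chr7:44473659-44482516) the density was 0.0649 to 0.135, against 0.754 to 1.27 in the flanking NTS, with no overlap between libraries. The log2 ratio was -3.52 ± 0.10 (SE, adjusted p = 1.56e-25, edgeR), although the TS of Josd2, whose 3′ end faces the region, had a mean of 4.74. The NTS of Josd2 had a mean of 0.677. In 5430431A17Rik the NTS was the denser strand, with a mean of 2.88 against 0.154 in its TS. The regions between BC037704 and the Entpd7 cluster, between Lbx2, a homeobox gene, and Mrpl53, a protein of the mitochondrial ribosome, and between the Simc1 cluster and Arl10 had log2 ratios of -3.41 ± 0.13, -3.41 ± 0.09 and -3.26 ± 0.09. Their densities were 0.0994 ± 0.0395, 0.101 ± 0.0271 and 0.199 ± 0.0493 (SD, n = 12 each).

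Orientation separated the short regions. Convergent regions had a density of 0.333 to 0.380 with a median of 0.354, tandem regions 0.224 to 0.243 with a median of 0.235, and divergent regions 0.161 to 0.203 with a median of 0.176, and no libraries of different classes overlapped. Convergent regions averaged 0.355 ± 0.0148 and divergent ones 0.178 ± 0.0132 (SD, n = 12 each), a ratio of 2.00 (log2 1.00 ± 0.16, SD). The log2 ratio of tandem over divergent regions was 0.40 ± 0.08 and that of convergent over tandem regions 0.60 ± 0.08. All 3 held in 12 of 12 libraries (p = 0.000488, exact sign-flip permutation test, the same after adjustment over 6). With the median density over regions, convergent over tandem regions gave a log2 ratio of 1.09, so its size depended on that choice.

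The flanking genes did not follow the same order. The flanking TS had 0.843 ± 0.0221 beside convergent regions, 1.03 ± 0.0176 beside tandem ones and 1.08 ± 0.0198 beside divergent ones, and the flanking NTS 0.119 ± 0.0110, 0.121 ± 0.0139 and 0.145 ± 0.0124. Relative to their own flanking NTS, the log2 ratio was 1.58 in convergent regions (1.27 to 1.87 over libraries), 0.96 in tandem regions (0.72 to 1.19) and 0.30 in divergent regions (0.24 to 0.38). These comparisons were added after seeing the data (p = 0.000488 each, exact two-sided sign-flip permutation test, the same after adjustment over 13 added comparisons). Region by region, 589 of 864 tested convergent regions were higher than their flanking NTS and 78 lower, with a median log2 ratio of 1.13, while 170 of 623 divergent regions were higher and 293 lower, with a median of -0.30. Of 2083 tandem regions 987 were higher and 457 lower, with a median of 0.45. Over all tested intergenic regions, of any length and orientation, 39.1% were higher and 35.2% lower.

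Density was lower in longer regions among convergent and tandem ones and nearly level among divergent ones. Convergent regions of 1 to 2 kb had 0.563 ± 0.0261, those of 2 to 5 kb 0.436 ± 0.0225 and those of 5 to 10 kb 0.304 ± 0.0112. Tandem regions had 0.341 ± 0.00879, 0.288 ± 0.00798 and 0.210 ± 0.00654 in the same lengths, and divergent regions 0.184 ± 0.0156, 0.176 ± 0.0134 and 0.179 ± 0.0134 (SD, n = 12). Over all orientations the density was 0.379 at 1 to 2 kb and 0.220 at 7.5 to 10 kb, and past the limit it was 0.159 at 10 to 20 kb and 0.0173 in regions over 500 kb. Densities on both sides of 10 kb thus formed one descending series. At 10 to 20 kb the order of the orientations was the same, with 0.202 in convergent, 0.144 in tandem and 0.119 in divergent regions. Over 50 kb the order was reversed, with 0.0302, 0.0346 and 0.0387. The differences between lengths were not tested.

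**Figure D2:**
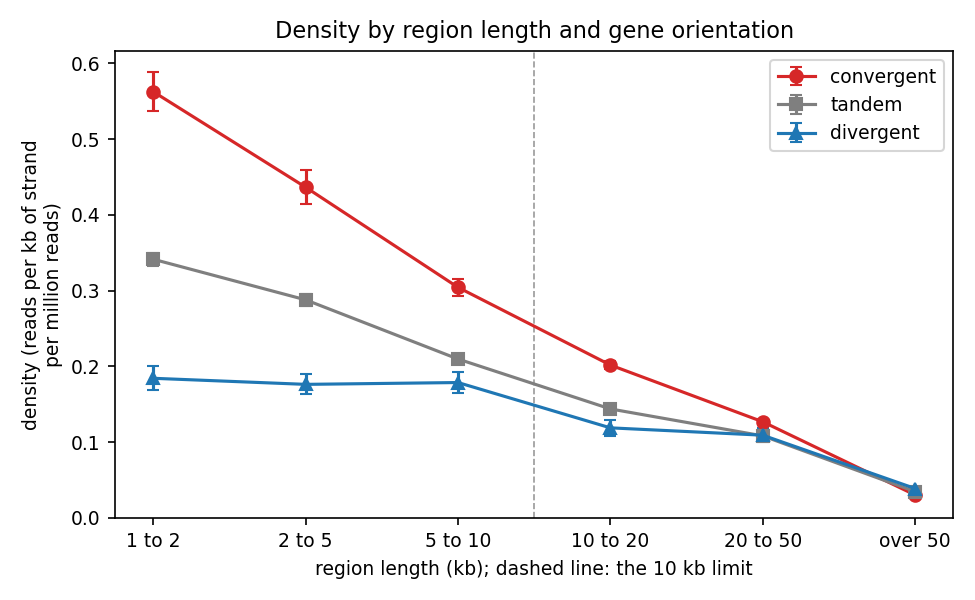
Density (RPKM, mean with SD over 12 libraries) against region length in kb for convergent, tandem and divergent regions. The 3 orientations are far apart at 1 to 2 kb (0.563, 0.341 and 0.184). Over 50 kb they lie close together on this axis, in the reverse order (0.0302, 0.0346 and 0.0387).

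The tables list each region on 2 lines, both marked with the same strand sign, so which line is which strand is not stated, and they are named here by their order. In tandem regions between plus-strand genes the first-listed line was denser, with 0.327 ± 0.00880 against 0.159 ± 0.0132 in the second-listed one (SD, n = 12 each). Between minus-strand genes the order was turned, with 0.148 ± 0.0110 in the first-listed and 0.305 ± 0.00904 in the second-listed line. The log2 ratio of the first line over the second was 0.81 to 1.19 over the 12 libraries between plus-strand genes and -1.23 to -0.81 between minus-strand genes, so every library showed both directions. Convergent regions had nearly equal lines (0.346 ± 0.0126 and 0.365 ± 0.0171), and divergent regions had 0.154 ± 0.0123 and 0.202 ± 0.0146. The divergent log2 ratio of -0.39 moved to -0.20 without the densest 1% of all intergenic regions, among which the Rhof to Setd1b region had 1.97 ± 0.251 in its first and 7.28 ± 1.20 in its second line.

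**Figure D3:**
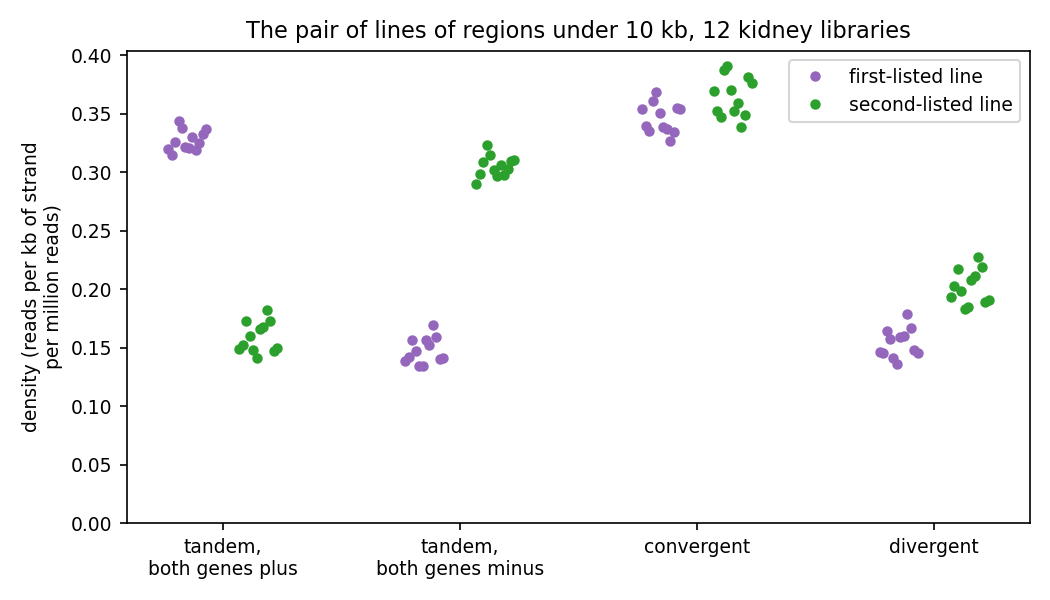
Density (RPKM) of the first-listed and second-listed line of regions under 10 kb, one point per library, by the orientation of the flanking genes. The first-listed line is higher between plus-strand genes and the second-listed one between minus-strand genes, with no overlap between libraries.

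Region by region, with edgeR's test of the first over the second line, 462 of 1020 tested tandem regions between plus-strand genes were higher in the first line and 165 in the second. Between minus-strand genes 162 of 1028 were higher in the first line and 432 in the second. Over all intergenic regions 30.6% were higher in the first line and 30.1% in the second. Of 853 convergent regions 290 were higher in the first and 314 in the second line, and of 614 divergent ones 145 and 174, so many single regions had unequal lines although the class totals were close.

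The denser line correlated more with the gene whose 3′ end faces the region than with the other neighbour. In convergent regions the first-listed line had a Spearman correlation of 0.861 with the TS density of the left gene and 0.428 with that of the right gene, and the second-listed line 0.406 and 0.857 (874 regions). In tandem regions between plus-strand genes the first line correlated at 0.865 with the gene whose 3′ end faces the region and at 0.660 with the gene whose 5′ end faces it, and the second line at 0.629 and 0.754 (1050 regions). Between minus-strand genes the second line correlated at 0.878 and 0.693 and the first at 0.642 and 0.746 (1058 regions). In divergent regions the 4 correlations were 0.516 to 0.610 (625 regions). These are descriptions across regions, which share libraries and depth and, where neighbours are shared, genes.

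The size of this imbalance was seen where 1 neighbour dominated. In 179 convergent regions the TS of the left gene was at least 4 times that of the right gene, and there the first line had 0.533 ± 0.0254 and the second 0.0927 ± 0.00617. In 214 regions with the right gene in front, the first line had 0.0783 ± 0.00808 and the second 0.629 ± 0.0403 (SD, n = 12 each). In the other 481 the lines had 0.399 ± 0.0171 and 0.346 ± 0.0147. In tandem regions, split into quartiles of 527 by the TS of the gene whose 3′ end faces them, the line that is denser in their class had a log2 ratio over the other of -0.89, -0.45, 1.02 and 1.60 from the lowest to the highest quartile. The same split by the gene whose 5′ end faces them gave 0.18, 1.55, 1.36 and 0.71. The excess of that line was largest where the gene ending at the region had the densest TS. Where the gene starting there had the densest TS, it was smaller than in the middle quartiles.

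Over the day the summed density of the short regions moved little. It was 0.253 and 0.258 at ZT0 (replicates 1 and 2), 0.251 and 0.262 at ZT4, 0.261 and 0.263 at ZT8, 0.270 and 0.262 at ZT12, 0.261 and 0.259 at ZT16, and 0.251 and 0.260 at ZT20. The dusk libraries (ZT8 and ZT12) averaged 0.264 and the dawn libraries (ZT20 and ZT0) 0.256, a difference of 3.40%, and they did not overlap (0.261 to 0.270 and 0.251 to 0.260). The flanking NTS was 14.4% higher at dusk (0.135 against 0.118) and the flanking TS 2.49% lower (0.964 against 0.989), both with overlap between libraries of different replicate number and none within either replicate number. Within replicate 1 the log2 of dusk over dawn in the short regions was 0.07 and within replicate 2 it was 0.02. A test of these sums was not run.

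Divergent regions, like the flanking NTS, had a higher mean at dusk, and convergent regions a lower one. Divergent regions had 0.191 at dusk and 0.171 at dawn (12.1% higher), tandem regions 0.242 and 0.230 (5.26% higher), and convergent regions 0.347 and 0.358 (3.01% lower). Convergent libraries overlapped between dusk and dawn (0.333 to 0.374 and 0.346 to 0.365), also within replicate 1. Divergent ones overlapped (0.178 to 0.203 and 0.161 to 0.183), but not within either replicate number, and tandem ones did not overlap. In divergent regions the highest density was at ZT8 in both replicates (0.191 and 0.203) and the lowest at ZT20 (0.161 and 0.168). In convergent regions the highest was at ZT16 in both (0.380 and 0.368) and the lowest at ZT8 (0.341 and 0.333). The log2 ratio of convergent over divergent density was 0.84 and 1.07 at dusk and 1.09 and 1.17 at dawn in replicate 1, and 0.71 and 0.82 at dusk and 0.91 and 1.12 at dawn in replicate 2, without overlap within a replicate. The log2 ratio of TS over NTS in the flanking genes moved with it, at 2.68 to 2.99 over the dusk libraries and 2.84 to 3.31 over the dawn libraries, and its part in these differences was not tested. The log2 line ratio in tandem regions between plus-strand genes was 0.91 to 1.10 at dusk and 1.11 to 1.19 at dawn in replicate 1, and 0.81 to 0.91 at dusk and 0.95 to 1.17 at dawn in replicate 2. Between minus-strand genes it overlapped in both, at -1.14 to -0.98 at dusk and -1.17 to -1.06 at dawn in replicate 1, and -0.93 to -0.81 at dusk and -1.14 to -0.92 at dawn in replicate 2.

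**Figure D4:**
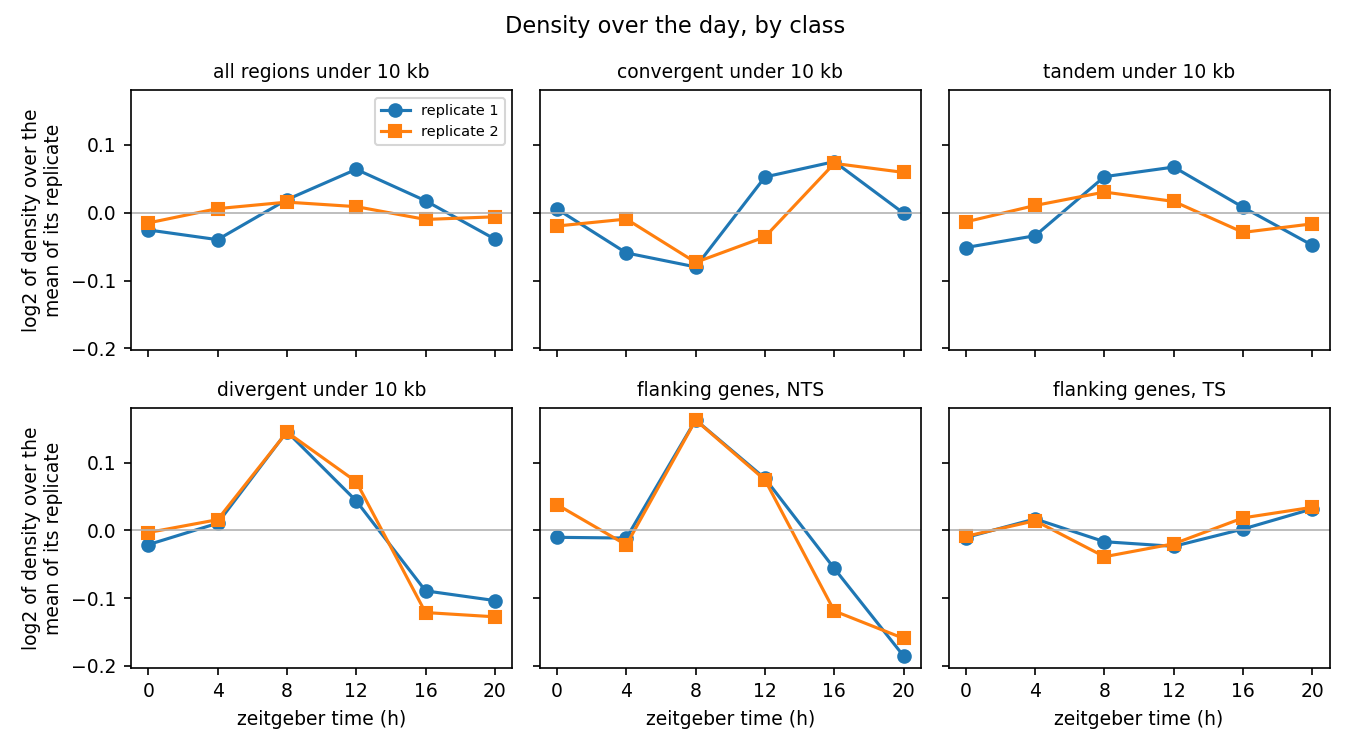
Log2 of density over the mean of the same replicate, against zeitgeber time, for all, convergent, tandem and divergent regions under 10 kb and for the strands of their flanking genes, one line per replicate. Divergent regions and the flanking NTS are highest at ZT8 in both replicates, where convergent regions are lowest.

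Single regions were tested for dusk against dawn with edgeR over all intergenic regions, with library sizes scaled by TMM. Of 3024 tested short regions 3 were higher at dusk, where 0.358% of all intergenic regions were, and 13 were lower, where 0.61% of all were, so with all libraries neither share exceeded the background. The 3 higher ones, named after their values were seen, lay beside the growth-response gene Egr1 (log2 0.65), beside Txnip, a thioredoxin inhibitor (0.85), and beside the ribosomal protein gene Rpl26 (1.32). They held means of 184, 66.9 and 14.4 reads per library, so the largest change rests on the fewest reads. The median log2 of dusk over dawn was -0.17 in 694 convergent regions, -0.04 in 1400 tandem ones and 0.08 in 440 divergent ones, and -0.00155 over all intergenic regions. Scaled instead to the fixed totals, the median of all regions moved to 0.12, and those of convergent, tandem and divergent regions to -0.04, 0.08 and 0.20. The calls moved to 9 higher and 5 lower of 3024, where 126 and 26 of 14260 over all intergenic regions were. The order of the orientations was the same under both scalings, and the sign of the tandem median was not. Without ZT8 replicate 2 or without ZT12 replicate 2 edgeR called none in either direction (260 and 241 at an unadjusted p below 0.05, against 474 with all libraries), and without ZT0 replicate 2 it called 24 higher and 153 lower of 2700, where 237 and 561 of 13581 over all intergenic regions were, so the share of lower calls was then above that of all regions. The 2 lines changed relative to each other between dusk and dawn in 9 of 4078 short regions, where 0.485% of all intergenic regions did.

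A 24 h rhythm was called in 102 of 2847 tested short regions (edgeR's quasi-likelihood F test of a cosine and a sine, adjusted over all intergenic regions), where 3.48% of all intergenic regions were called, so with all libraries and TMM scaling the share was at the background. By orientation these were 46 of 655 convergent, 37 of 1311 tandem and 3 of 411 divergent regions. The difference between orientations was not tested. Peaks fell between 16 and 24 h in 86, between 4 and 12 h in 13 and elsewhere in 3. Scaled to the fixed totals, 49 of 2847 were called, below the share of all intergenic regions (415 of 13896). Of these, 33 were shared with the 102, and 17 peaked between 16 and 24 h and 29 between 4 and 12 h. The split of peak times thus depended on the scaling. With TMM scaling the count was 19 of 2412 without ZT8 replicate 2 (137 of 12923 over all) and 254 of 2418 without ZT0 replicate 2 (1063 of 12930 over all), below the share of all regions in one and above it in the other. It was 30 without ZT8 replicate 1, 54 without ZT12 replicate 2, 34 and 32 without ZT16 replicate 1 or 2, 40 and 30 without ZT20 replicate 1 or 2, and 173 without ZT4 replicate 1. With all libraries and without each of the 12 in turn, 13 regions were called every time.

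The largest amplitude among called regions with a mean of at least 20 reads was in the convergent region between 1500015O10Rik and Uxs1, which makes UDP-xylose for proteoglycans (chr1:43744565-43748230). Its density was 0.314 and 0.273 at ZT0 (replicates 1 and 2), 0.157 and 0.184 at ZT4, 0.172 and 0.123 at ZT8, 0.314 and 0.198 at ZT12, 0.423 and 0.430 at ZT16, and 0.251 and 0.430 at ZT20. It was lowest at ZT4 and ZT8 and highest at ZT16 in replicate 1 and at ZT16 and ZT20 in replicate 2. The log2 amplitude was 0.85 ± 0.12 (SE), a fitted 3.25-fold range, and the fit peaked at 18.5 h (adjusted p = 0.00115, edgeR). It held a mean of 28.7 reads per library, and its second line had 0.517 ± 0.232 against 0.0275 ± 0.0201 in the first. The TS of Uxs1, whose 3′ end faces the region, peaked at 18.8 h with an amplitude of 0.26, and RefSeq extends Uxs1 into the region.

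The region between Pphln1, a subunit of the silencing complex HUSH, and Prickle1, of planar cell polarity (chr15:93493913-93497113, convergent), had 0.557 and 0.437 at ZT0, 0.287 and 0.273 at ZT4, 0.126 and 0.258 at ZT8, 0.485 and 0.359 at ZT12, 0.592 and 0.609 at ZT16, and 0.485 and 0.453 at ZT20. It was lowest at ZT8 and highest at ZT16 in both replicates, and the fit peaked at 18.5 h with amplitude 0.70 ± 0.12 (adjusted p = 0.00376, edgeR). The TS of Pphln1 and of Prickle1 had amplitudes of 0.19 and 0.27 with peaks at 18.5 and 19.4 h. Between Nat8f5 and Nat8, acetyltransferases of the kidney that complete mercapturic acids, the region (chr6:85822973-85828386) had 0.106 and 0.0877 at ZT0, 0.212 and 0.157 at ZT4, 0.244 and 0.208 at ZT8, 0.446 and 0.272 at ZT12, 0.350 and 0.272 at ZT16, and 0.0955 and 0.212 at ZT20. The fit peaked at 13.2 h with amplitude 0.74 ± 0.14 (adjusted p = 0.00606, edgeR). Nat8 genes are close copies, so reads in and beside them are uncertain. These 3 calls held without any single library.

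Other large rhythms lost the call without some single libraries, while their amplitudes stayed between 0.61 and 0.85 in the Arhgef7 region and between 0.58 and 0.83 in the Uimc1 region. The region between Arhgef7, a guanine nucleotide exchange factor, and Tex29 peaked at 20.7 h with amplitude 0.69 ± 0.16 (adjusted p = 0.0272, edgeR). The region between the Hk3 cluster and Uimc1, of the BRCA1-A complex, peaked at 19.1 h with amplitude 0.67 ± 0.14 (adjusted p = 0.0179, edgeR). Both lost the call without ZT8 replicate 2 and without either ZT20 library. The Arhgef7 region also lost it without ZT8 replicate 1, ZT12 replicate 2 or either ZT16 library, and under the fixed totals (adjusted p = 0.0502). Without 1 library the adjusted p reached 0.184 in the Arhgef7 region and 0.150 in the Uimc1 region.

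**Figure D5:**
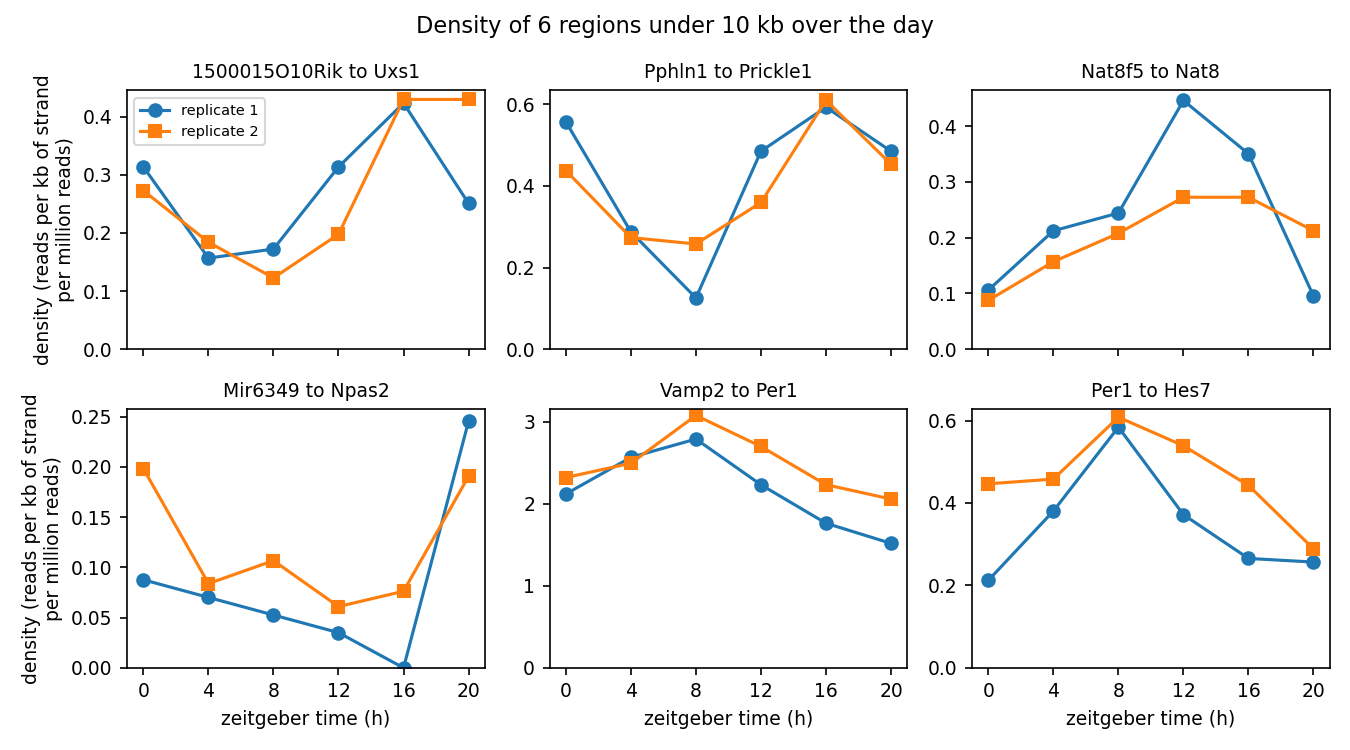
Density (RPKM, each panel with its own axis from 0) of 6 regions against zeitgeber time, one line per replicate. The convergent regions beside Uxs1 and Prickle1 are lowest at ZT4 or ZT8, and both regions beside Per1 are highest at ZT8.

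Clock genes flanked 7 short regions. Per1, a repressor of the molecular clock, has a short region on each side. The region upstream of it, between Vamp2, a vesicle SNARE, and Per1 (chr11:69094382-69096955), had 2.12 and 2.32 at ZT0, 2.57 and 2.5 at ZT4, 2.79 and 3.08 at ZT8, 2.23 and 2.70 at ZT12, 1.76 and 2.23 at ZT16, and 1.52 and 2.06 at ZT20. It was highest at ZT8 and lowest at ZT20 in both replicates. The fit peaked at 7.3 h with amplitude 0.23 ± 0.06 (adjusted p = 0.0668, edgeR, not called). It was called under the fixed totals, with amplitude 0.31 (adjusted p = 0.0228), without ZT0 replicate 2 (adjusted p = 0.0398) and by DESeq2 (adjusted p = 0.0449). Its mean of 2.32 ± 0.438 was 6.10 times the flanking NTS of 0.377 ± 0.138 (log2 2.61 ± 0.08, SE, adjusted p = 1.90e-24), against 7.94 ± 1.32 in the flanking TS. RefSeq extends Per1 into this region, and the Per1 windows printed above lie just beyond it.

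The region downstream, between Per1 and Hes7, a repressor of the segmentation clock (chr11:69111958-69118452), had 0.212 and 0.446 at ZT0, 0.380 and 0.458 at ZT4, 0.584 and 0.608 at ZT8, 0.372 and 0.539 at ZT12, 0.265 and 0.443 at ZT16, and 0.257 and 0.289 at ZT20. It too was highest at ZT8 in both replicates, and the fit peaked at 8.6 h with amplitude 0.39 ± 0.09 (adjusted p = 0.0403, edgeR). The call was lost without any 1 of 8 libraries (adjusted p of up to 0.192, all but ZT4 and ZT12 of replicate 1 and ZT0 and ZT16 of replicate 2). The TS of Per1 peaked at 6.1 h with amplitude 0.19. The first-listed line had 0.597 ± 0.197 and the second-listed 0.212 ± 0.0930.

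The divergent region between Mir6349 and Npas2, a partner of Arntl in the clock (chr1:39188993-39192271), had 0.0876 and 0.198 at ZT0, 0.0701 and 0.0839 at ZT4, 0.0526 and 0.107 at ZT8, 0.0351 and 0.0610 at ZT12, 0 and 0.0762 at ZT16, and 0.245 and 0.191 at ZT20. With a mean of 10.2 reads it had too few for the rhythm fit. It was lower at dusk than at dawn (log2 -1.52, adjusted p = 0.0426, edgeR), and the call was lost without any 1 of 8 libraries (adjusted p of up to 0.290) and under the fixed totals (adjusted p = 0.0706). Only dawn libraries held enough reads to pass the filter on low counts, so the region entered this test through the times where it was high. With no such filter the log2 was -1.53 (adjusted p = 0.0339, edgeR). The TS of Npas2 peaked at 22.6 h with amplitude 1.67. Further regions lay beside Tef (0.867 ± 0.189), the Rora cluster (0.165 ± 0.0418) and the Nr1d1 cluster (0.0808 ± 0.0232), and the fit without a replicate block called none of these 3 rhythmic (adjusted p of 0.116, 0.951 and 0.777, edgeR).

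Regions beside immediate early genes, which are induced within minutes of a stimulus, had a high median density but a wide range. The 7 of them had a median density of 0.625 (0.139 to 2.43), against 0.145 over all short regions, and 5 were higher and 2 lower than their flanking NTS. The regions named below are all among the higher ones. For this and the following lists, the shares over all tested intergenic regions were 39.1% higher and 35.2% lower. The region between Junb, a subunit of AP-1, and Hook2 (chr8:84980749-84988594) had 1.96 to 2.66 with a median of 2.11, and a mean of 2.19 ± 0.238, against 0.547 ± 0.110 in the flanking NTS (log2 1.99 ± 0.07, SE, adjusted p = 1.59e-23, edgeR). Its second line had 3.73 ± 0.511 and its first 0.650 ± 0.193. The region between Zfp36, which destabilises cytokine mRNAs, and Med29 had 2.43 ± 0.464 and that between Ier2 and Nacc1 1.49 ± 0.131. The region downstream of Atf3, a stress factor, had 0.379 ± 0.121.

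The 9 regions beside nucleotide excision repair genes had a median density of 0.201, and 4 of 8 tested were higher and 2 lower than the flanking NTS. Among them the region between Mnat1, a subunit of TFIIH, and Trmt5 had 0.457 ± 0.0715, and those on either side of Uvssa, a factor of transcription-coupled repair, had 0.545 ± 0.143 (Maea to Uvssa) and 0.270 ± 0.0416 (Uvssa to Nkx1-1). The region between Gtf2h4, another TFIIH subunit, and Ddr1 had 0.201 ± 0.0576, against 0.654 ± 0.10 in the flanking NTS. Of 6 regions beside p53 targets 1 was higher and 3 were lower, with 0.893 ± 0.0840 beside Ccng1, a cyclin, and 0.168 ± 0.0396 upstream of Cdkn1a, the cell cycle inhibitor p21. Of 9 beside kidney tubule genes 5 were higher and 2 lower. The region between Ltbr and Scnn1a, a subunit of the epithelial sodium channel, had 1.11 ± 0.143. The region downstream of Calb1, the calcium buffer of the distal tubule, had 0.248 ± 0.0415. RefSeq extends Scnn1a into the region beside it, and Trmt5 into the Mnat1 to Trmt5 region.

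The 44 regions beside cytosolic ribosomal protein genes had a median density of 0.228. These genes were taken by symbol, which includes the pseudogene Rps19-ps3. Of the 44 regions, 24 were higher and 13 lower than the flanking NTS, near the shares of all short regions (2043 and 974 of 4106). The region between Rps23 and Atg10, an autophagy enzyme (chr13:90926733-90933348), which holds the Gm46434 window printed above, had 0.495 to 0.860 with a median of 0.683. Its first line had 1.17 ± 0.191 and its second 0.192 ± 0.0553, with a TS mean of 2.17 in Rps23 and 0.271 in Atg10. Its log2 ratio to the flanking NTS was 3.64 ± 0.07 (SE, adjusted p = 5.05e-30, edgeR). The region between Colec11, a collectin, and Rps7 had 0.762 ± 0.177, with 1.44 ± 0.353 in the second line and 0.0883 ± 0.0318 in the first.

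Of 13 regions in histone clusters 11 were lower and 2 higher than the flanking NTS, with a median log2 ratio of -1.64 and a median density of 0.132, close to the 0.145 of all short regions. An example is the ratio of -3.49 ± 0.30 between Hist1h2bm and Hist1h4j (0.0341 ± 0.0137, against 0.429 ± 0.283, adjusted p = 2.39e-12, edgeR). Histone genes are close copies, so their own reads are uncertain. The 362 regions beside olfactory receptors, which are silent in most tissues outside the nose, had a median density of 0.0139. Of 330 tested 61 were higher and 31 lower than the flanking NTS, both below the shares over all tested intergenic regions (39.1% and 35.2%). Only 10 of the 362 had a mean of at least 20 reads per library. Low counts therefore limit these calls and the median log2 ratio of 0.49. Between Olfr911-ps1 and Olfr910 the region had 0.00814 to 0.0187, where both strands of the flanking genes were at 0 in every library, so no fold is given.

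A RefSeq gene overlapped 1144 of the 4171 short regions, and in 514 of them it was a flanking gene that RefSeq extends. The overlapping genes included 621 protein-coding, 394 long noncoding and 211 pseudogene entries. Regions with such a gene had a density of 0.321 and those without 0.233, a log2 ratio of 0.46 that held in 12 of 12 libraries (p = 0.000488, exact sign-flip permutation test, among the 13 added comparisons). Without regions that overlap a RefSeq gene, 1418 of 2980 tested short regions were higher than the flanking NTS and 724 lower. Over all intergenic regions left in that setting, 2776 of 6867 were higher and 2070 lower. The log2 ratio of convergent over divergent short regions was then 1.32.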

How the data were processed

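XR-seq reads were counted by the authors per region, strand and time. Per the file headers the deposited tables hold read counts with RPKM values, for kidney libraries downsampled by the authors to fixed totals of 8700000 (replicate 1) and 20000000 (replicate 2) reads, which were recovered from the RPKM. The build is mm10 per the submitters' processing notes; the aligner was not given in the sources used here. Per the labels' protocols, extraction used antibodies against lesions other than cisplatin adducts, while the design text names a cisplatin step. Depth is thus equal within a replicate number, and low counts limit single regions.

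Both lines of a region were summed and divided by the length of both strands. Starts were moved to 1-based. Flanking genes were to be taken within 1 kb of an edge, but all regions lie 2000 bases from a gene, so the genes at exactly that distance were used; the flanking strands are summed over 1 or 2 genes. Counts were tested with edgeR 4.0.16 in R 4.3.3 (quasi-likelihood, Benjamini-Hochberg, threshold 0.05) over all intergenic regions: region against flank with the library as a block and at least 10 reads in all, and rhythm and dusk against dawn with TMM and filterByExpr. Fits were tested on simulated data. Class sums were compared by exact sign-flip permutation over 12 libraries. DESeq2 1.42.0 and other settings were alternatives. Replicate numbers were not used as pairs, since the rule asked for a correlation of deviations above 0.1 in every pair of times; it was 0.0861 to 0.288 over 15, above 0.1 in 14, so a weak shared shift is not excluded.

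Named regions are the 6 largest and 4 smallest ratios to the flanking NTS and the 6 largest rhythms among called regions with a mean of at least 20 reads, the 5 densest, all regions beside clock genes, up to 4 beside genes of each other list and those at the length limit; some of these are not reported here. Regions and lists were chosen with earlier results of these data known.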

Additional observations from a re-analysis of the deposited data

How the results depend on the processing

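The 6 comparisons of class density and the 4 counts against the flanking strands kept their direction, and the counts stayed within 1.5 times, under all settings run. Leaving out each library gave log2 ratios of 2.54 to 2.55 against longer regions, 1.05 to 1.09 and -1.93 to -1.91 against the flanking NTS and TS, and 2002 to 2051 regions higher and 936 to 974 lower than the NTS. Rhythm and dusk calls were not stable. Rhythmic short regions numbered 49 at the fixed totals, 284 with the replicate number as a block (all 102 shared) and 19 to 254 without 1 library. Regions higher at dusk numbered 9 at the fixed totals, 29 with the replicate block and 0 to 24 without 1 library. Regions lower at dusk numbered 5, 160 and 0 to 153 in the same settings, and 3 with DESeq2. Fits without 1 library leave fewer degrees of freedom, and their counts moved in both directions. The cause was not tested. The block found all 16 dusk calls. Its share of lower dusk calls (160 of 3024) was above that of all regions (597 of 14260), unlike without the block, and its rhythm calls compare with 1214 of 13896. It also called rhythms in the Vamp2 to Per1 (adjusted p = 0.0176) and Zc3h7b to Tef (adjusted p = 0.0298) regions, among others. Genes within 100 bases of an edge, genes that overlap no other entry and regions of at least 300 bases changed nothing or could not be applied, because all short regions are 1002 bases or longer and every flanking gene used lies 2000 bases away and overlaps no other entry. Density per GG was not run, as no genome of the build was used. Counts of a few reads per library limit single regions: 2847 of 4171 short regions entered the rhythm fit.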
